A study of Homo sapiens with 3 samples.

Results

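The insulin-like growth factor (IGF) axis was described through 10 of its genes in a gastric cancer cell line after knockdown of FOXP4, a forkhead transcription factor. They were chosen by gene symbol among the 31907 rows of the deposited expression matrix, and 10 of 10 symbols had a row. The set holds the receptors IGF1R, INSR and IGF2R, the receptor substrates IRS1 and IRS2, and the binding proteins IGFBP2, IGFBP3, IGFBP4, IGFBP5 and IGFBP6. In all, 8 of the 10 reached a mean of at least 1 TPM (a read share per transcript length) over the libraries and entered the fits across genes. IGFBP3 and IRS2 did not.

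The cells were NCI-N87, an established human gastric cancer line, and the series comprised 3 poly(A) RNA libraries. Of these, 1 library was from cells given siRNA1 against FOXP4 and 1 from cells given siRNA2 against FOXP4, labelled as knockdown, and 1 was from cells given a scrambled siRNA, labelled as wild type. All 3 were transfected with Lipofectamine 2000, so the control carries the transfection too. The siRNAs are different reagents, the scrambled library has no replicate, and separate cultures are not mentioned in the labels. The p-values below therefore rest on the difference between the 2 siRNA libraries, moderated by limma with that of all genes; it mixes reagent with technical scatter, and the scatter of the scrambled condition was not measured.

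IGF1 and IGF2 are secreted peptides that bind IGF1R, a tyrosine kinase, and IGF2 and insulin also bind INSR. The active receptors phosphorylate IRS1 and IRS2, docking proteins that recruit PI3-kinase and so switch on AKT and mTOR, which promote growth and survival and keep FOXO factors out of the nucleus. IGF2R has no kinase; it takes IGF2 to the lysosome and also carries lysosomal enzymes there. The IGFBPs bind IGFs in the extracellular fluid, where they can hold the ligand away from the receptor, prolong its life or release it after cleavage by proteases such as PAPPA.

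Stretches of genome just before the transcription start of 4 members are shown for the values that follow: IGFBP5, the member furthest below the scrambled library; IGF2R, the member furthest above it; IGFBP4, the most abundant; and IGFBP6, whose stretch holds a forkhead motif. Each runs 5′ to 3′ along the gene's strand and ends at the base before the RefSeq start, over 250 bases on GRCh38.p14. They lie at chr2:216695550-216695799 (minus strand) for IGFBP5, chr6:159968832-159969081 (plus) for IGF2R, chr17:40443200-40443449 (plus) for IGFBP4 and chr12:53097417-53097666 (plus) for IGFBP6. Capitals mark the motifs searched, which were chosen after the sequences had been seen.
IGFBP5: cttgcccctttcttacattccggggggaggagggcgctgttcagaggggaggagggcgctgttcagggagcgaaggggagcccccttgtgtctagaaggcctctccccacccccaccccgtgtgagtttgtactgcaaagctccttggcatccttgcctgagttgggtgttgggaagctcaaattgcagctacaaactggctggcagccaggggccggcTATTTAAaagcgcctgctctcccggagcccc
IGF2R: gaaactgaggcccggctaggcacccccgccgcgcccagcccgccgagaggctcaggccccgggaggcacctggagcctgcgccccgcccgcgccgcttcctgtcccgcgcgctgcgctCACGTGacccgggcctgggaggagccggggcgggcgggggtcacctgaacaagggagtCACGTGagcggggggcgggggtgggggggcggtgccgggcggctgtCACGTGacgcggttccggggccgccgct
IGFBP4: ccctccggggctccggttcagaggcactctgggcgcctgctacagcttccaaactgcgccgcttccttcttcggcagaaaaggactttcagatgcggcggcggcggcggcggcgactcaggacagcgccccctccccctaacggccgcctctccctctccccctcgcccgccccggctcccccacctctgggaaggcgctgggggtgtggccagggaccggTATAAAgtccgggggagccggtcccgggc
IGFBP6: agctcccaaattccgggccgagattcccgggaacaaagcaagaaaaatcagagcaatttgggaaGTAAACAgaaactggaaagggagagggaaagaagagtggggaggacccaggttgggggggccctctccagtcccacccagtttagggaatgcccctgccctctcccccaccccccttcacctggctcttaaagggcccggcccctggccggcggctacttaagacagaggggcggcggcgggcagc

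In IGFBP5 the capitals mark the TATA-like TATTTAA, whose first base lies 31 bases before the start. IGFBP4 has the TATA box letters TATAAA, beginning 29 bases before the start. IGF2R has 3 copies of the E-box CACGTG, beginning 132, 74 and 28 bases before the start. IGFBP6 has the forkhead core GTAAACA, beginning 186 bases before the RefSeq start, which lies 231 bases downstream of the GENCODE 29 start given below, so most of this stretch and the motif fall inside the GENCODE gene. For IGF2R, IGFBP4 and IGFBP5 the RefSeq start lies 17, 11 and 24 bases upstream of the GENCODE start. No other member's stretch had the letters GTAAACA. Searched on both strands, TATTTAA was present in 4.17% of 35116 RefSeq promoter stretches of that length, TATAAA in 10.7%, CACGTG in 6.34% and GTAAACA in 2.98%. Matches are letters, not shown binding sites. These stretches were GC-rich, at 61.2% for IGFBP5 and IGFBP6, 71.6% for IGFBP4 and 79.2% for IGF2R, against a median of 58.0% over all promoters.

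FOXP4 itself measured 51.6 TPM with siRNA1 and 36.7 TPM with siRNA2, against 93.9 TPM in the scrambled library. Its log2 folds were -0.85 and -1.33, and limma gave FOXP4 an adjusted p of 0.9999 over all genes. FOXP4 transcripts are 62.9% GC, and with the GC trend described below removed the folds were -0.20 and -1.02, so the lower FOXP4 level with siRNA1 is not shown apart from that trend. From the steps of low values, the libraries held about 18100000, 18700000 and 17900000 reads with siRNA1, siRNA2 and the scrambled siRNA. The epithelial markers EPCAM, KRT8, KRT18, CDH17, TFF1, ERBB2 and CDH1 were all detected. ERBB2, whose gene is known to be amplified in NCI-N87, measured 58.9 and 63.9 TPM with siRNA1 and siRNA2 and 89.8 TPM in the scrambled library. That is the percentile 76.8, 80.4 and 85.2 of the genes tested, an unremarkable level for an amplified gene, so ERBB2 does not mark these libraries as NCI-N87. The adhesion gene CDH1 measured 5.86, 11.6 and 4.16 TPM. Fibroblasts are a major source of IGFs and IGFBPs in tissue; 5 of 6 fibroblast markers stayed below 1 TPM in every library, with COL1A2, DCN and LUM listed at 0. The summed level of that list was 7.06, 22.7 and 13.9 TPM in the same order, nearly all of it COL1A1, and the endothelial and immune markers with a row were all below 1 TPM. GC-rich transcripts were lower as a class with siRNA1: across 12302 genes, which are not independent, the Spearman correlation of the log2 fold with GC content was -0.61 with siRNA1 and -0.10 with siRNA2. The median log2 fold of all genes was 0.03 with siRNA1 and -0.24 with siRNA2. Rescaling the libraries by the median of gene ratios moved the siRNA2 median by 0.25, to 0.01. Mitochondrially encoded transcripts took 10.4% of TPM with siRNA1 and 1.92% with siRNA2, against 6.37% in the scrambled library, and their part in the folds of the members was read by leaving them out.

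**Figure D1:**
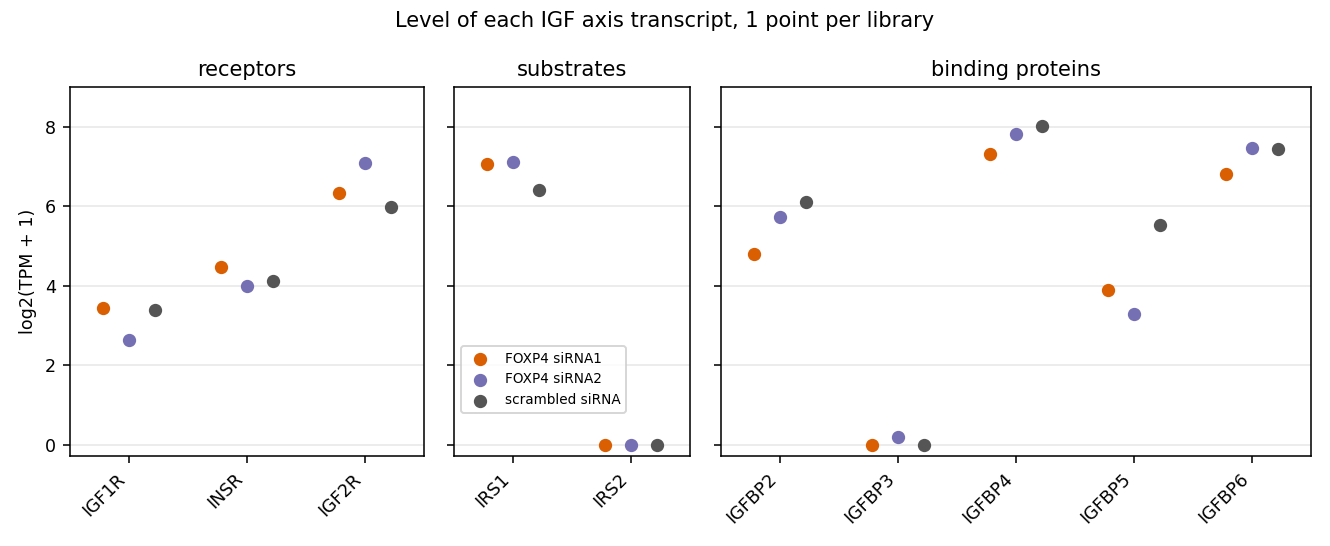
Level of each IGF axis transcript as log2(TPM + 1), with 1 point per library and the FOXP4 siRNA libraries left of the scrambled one. IGFBP5 stands lower and IRS1 and IGF2R stand higher with each FOXP4 siRNA than with the scrambled siRNA, and IRS2 is listed at 0 throughout.

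Among receptors, IGF2R was the most abundant in every library and stood above the scrambled library with each siRNA. IGF2R (ENSG00000197081.13, chromosome 6, 159969099 to 160113507 on the plus strand of GRCh38) had 79.6 TPM with siRNA1 and 135 TPM with siRNA2, against 62.2 TPM with the scrambled siRNA. Its log2 folds were 0.35 with siRNA1 and 1.11 with siRNA2. Only the siRNA2 library was more than 2-fold from the control, and the siRNA libraries differed from each other by 0.76 on the log2 scale. The mean log2 fold of IGF2R was 0.73 ± 0.53 (SD, n = 2), and limma gave an adjusted p of 0.9999 over all genes. AIRN, an antisense gene that overlaps IGF2R in GENCODE 29, was listed at 0 in all 3 libraries. As the cells were lysed in bulk, fewer cells with a transcript and less of it per cell cannot be told apart, here or below.

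IGF1R, the kinase through which IGF1 and IGF2 chiefly signal, was the scarcest of the measured members. IGF1R (ENSG00000140443.14, chromosome 15, 98648539 to 98964530, plus strand) measured 9.88 TPM with siRNA1 and 5.19 TPM with siRNA2, against 9.40 TPM in the scrambled library. The siRNA1 library was thus near the control, at a log2 fold of 0.06, and the siRNA2 library below it, at -0.75. The siRNA2 fold of IGF1R was -0.51 after median-of-ratios rescaling and -0.47 with the GC trend removed. INSR, the insulin receptor (ENSG00000171105.13, chromosome 19, 7112255 to 7294034, minus strand), measured 21.1 TPM with siRNA1 and 14.9 TPM with siRNA2, against 16.3 TPM in the scrambled library. Its siRNA values lay on either side of the control, with log2 folds of 0.35 and -0.12. The siRNA2 fold of INSR was 0.14 after median-of-ratios rescaling and 0.12 with the GC trend removed, so its sign depends on the processing.

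Ratios within a library do not depend on its scaling. IGF1R made up 31.9% of the summed IGF1R and INSR level with siRNA1, 25.8% with siRNA2 and 36.6% with the scrambled siRNA, so INSR transcripts were the majority of this receptor pair in each library. The level of IGF2R was 8.05 times that of IGF1R with siRNA1 and 26.0 times with siRNA2, against 6.61 times in the scrambled library. The wide siRNA2 ratio combined the highest IGF2R with the lowest IGF1R value of the 3 libraries.

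IRS1, the docking protein first described for the insulin receptor, had close values with the siRNAs and was above the control with each. IRS1 (ENSG00000169047.5, chromosome 2, 226731317 to 226799759, minus strand) measured 133 TPM with siRNA1 and 137 TPM with siRNA2, against 84.8 TPM in the scrambled library. The siRNA libraries stood at 157% and 162% of the control, and their log2 folds of 0.64 and 0.69 had a mean of 0.66 ± 0.03 (SD, n = 2). That SD was the smallest among the 8 measured members, but in limma IRS1 did not pass over all genes (adjusted p = 0.9999, unadjusted p = 0.190). IRS1 stayed above the control under each rescaling, at 0.63 and 0.96 after median-of-ratios scaling and at 0.71 and 0.95 with the GC trend removed, for siRNA1 and siRNA2. Set against the summed IGF1R and INSR level, IRS1 was 4.295 times as abundant with siRNA1, 6.81 times with siRNA2 and 3.297 times with the scrambled siRNA.

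IRS2, the other main docking protein (ENSG00000185950.8, chromosome 13, 109752698 to 109786568, minus strand), was listed at 0 in all 3 libraries. A listed 0 here need not mean an absent transcript. POLR2F, a shared subunit of the RNA polymerases, and PSMD5, which assists assembly of the proteasome, were also listed at 0 throughout; both were singled out after their values had been seen. In all, 2038 of 16198 protein-coding rows were 0 in every library.

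Among the binding proteins, IGFBP5 was lower with both FOXP4 siRNAs than with the scrambled siRNA by the widest margin of any member. IGFBP5 (ENSG00000115461.4, chromosome 2, 216672105 to 216695525, minus strand) measured 13.9 TPM with siRNA1 and 8.71 TPM with siRNA2, against 45.1 TPM in the scrambled library. That left 30.8% and 19.3% of the control level. The values rested on an estimated 404 and 258 reads with siRNA1 and siRNA2 and 1358 reads in the control, so counting error is small beside the gap. On the log2 scale siRNA1 lay at -1.63 and siRNA2 at -2.25 relative to the control, and the mean fold was -1.94 ± 0.44 (SD, n = 2). IGFBP5 had an unadjusted limma p of 0.0168, the 1 member of 8 under 0.05, and an adjusted p of 0.9999 over all genes, so it did not pass. IGFBP5 was lower in 2 of 2 siRNA libraries, and across the alternative settings its limma adjusted p ran between 0.249 and 0.9999. At 51.9% GC its transcript is close to the middle of the genes tested (median 48.2%), and its log2 folds were -1.51 and -1.97 with the GC trend removed and -1.58 and -2.32 without mitochondrially encoded genes.

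IGFBP2 lies 7668 bases from IGFBP5 on chromosome 2, the genes pointing toward each other. IGFBP2 (ENSG00000115457.9, 216632828 to 216664436, plus strand), which like IGFBP5 can bind either IGF, measured 26.7 TPM with siRNA1 and 52.1 TPM with siRNA2, against 68.0 TPM in the scrambled library. The siRNA1 library stood at 39.3% of the control and the siRNA2 library at 76.6%. The log2 folds were -1.32 and -0.38, and the gap of 0.94 between siRNAs was the widest of any measured member. IGFBP2 transcripts are 57.1% GC, and with the GC trend removed the folds were -0.97 and -0.07, which takes siRNA1 inside 2-fold. The neighbours thus had unlike values with siRNA2, where IGFBP5 was far below the control and IGFBP2 was not.

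IGFBP4 and IGFBP6 were the most abundant binding proteins in each library. IGFBP4, a substrate of PAPPA (ENSG00000141753.6, chromosome 17, 40443461 to 40457731, plus strand), measured 159 TPM with siRNA1 and 224 TPM with siRNA2, against 258 TPM with the scrambled siRNA. IGFBP6, which prefers IGF2 over IGF1 (ENSG00000167779.8, chromosome 12, 53097436 to 53102345, plus strand), measured 111 TPM with siRNA1 and 175 TPM with siRNA2, against 175 TPM with the scrambled siRNA. For each gene the siRNA1 library was the lowest, with log2 folds of -0.70 for IGFBP4 and -0.65 for IGFBP6, and the siRNA2 library lay nearer the control, at -0.20 and 0.00. These are the 2 most GC-rich transcripts of the measured members, at 62.5% and 64.1%. Once the GC trend was taken out, IGFBP4 had a siRNA1 fold of -0.07 and IGFBP6 one of 0.08, and the siRNA2 folds 0.11 and 0.33. After median-of-ratios rescaling the siRNA2 folds were 0.08 and 0.28 and the siRNA1 folds -0.71 and -0.66. IGFBP6 thus has no direction that holds across settings. For IGFBP4 the siRNA2 fold changes sign, and the siRNA1 fold keeps its sign but lies near 0 with the GC trend removed.

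IGFBP3, the main carrier of IGFs in serum (ENSG00000146674.14, chromosome 7, 45912245 to 45921874, minus strand), was near the limit of detection. It was listed at 0 with siRNA1, at 0.142 TPM with siRNA2 (about 3.0 reads) and at 0 with the scrambled siRNA. A difference between libraries was not detectable at this depth. IGFBP1, its neighbour 18576 bases away and not among the 10, measured 0.133 TPM with siRNA1 (about 1.0 read) and 11.2 TPM with siRNA2 (about 85.3 reads), and was listed at 0 in the scrambled library. IGFBP1, a secreted binding protein that insulin is known to repress in liver, thus passed the filter on low values only through the siRNA2 library.

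**Figure D2:**
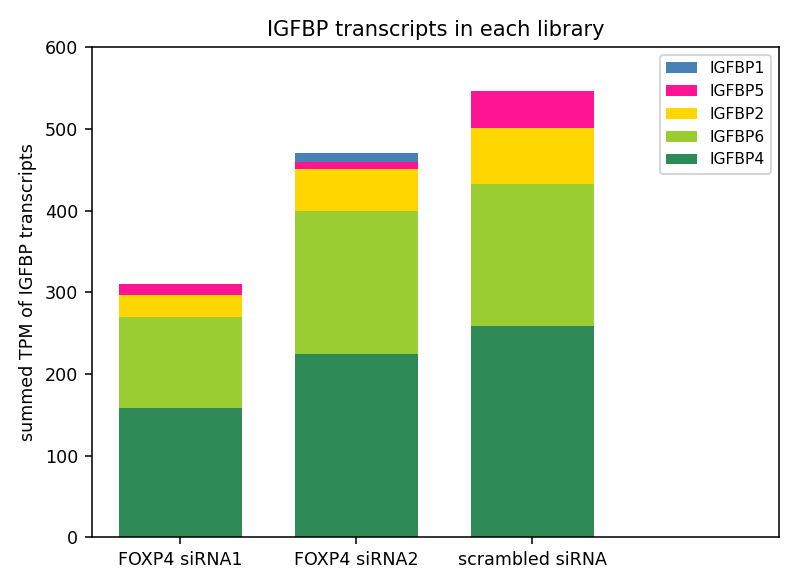
Summed TPM of the IGFBP transcripts in each library, stacked by gene (IGFBP3, at most 0.142 TPM, is not visible). The stack is lowest with siRNA1, at 310 TPM, and the IGFBP5 layer is thin with each FOXP4 siRNA.

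Added together, IGFBP1 to IGFBP6 made up 310 TPM with siRNA1 and 471 TPM with siRNA2, against 546 TPM in the scrambled library. IGFBP5 was 4.48% of this pool with siRNA1 and 1.85% with siRNA2, against 8.27% with the scrambled siRNA. IGFBP4 kept the largest share throughout, at 51.1% with siRNA1, 47.6% with siRNA2 and 47.3% with the scrambled siRNA. IGFBP6 held 35.8%, 37.1% and 32.0% of the pool in the same libraries, and IGFBP2 8.60%, 11.04% and 12.5%. The lower share of IGFBP5 with each siRNA does not depend on how that library was scaled. Per unit of summed IGF1R and INSR, the pool stood at 10.03 with siRNA1 and 23.4 with siRNA2, against 21.2 with the scrambled siRNA. IGFBP4 and IGFBP6 made up most of the pool in each library. With the GC trend removed, their siRNA1 folds of -0.07 and 0.08 leave them near the control. IGFBP2 and IGFBP5, also lower with siRNA1, had siRNA1 folds of -0.97 and -1.51 with that trend removed. The summed IGF1R and INSR level was 31.0 TPM with siRNA1 against 25.7 TPM with the scrambled siRNA, which also lowers the siRNA1 ratio.

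The order of levels among the 8 measured members was much alike between libraries, with IGFBP4 highest and IGF1R lowest in each. In the scrambled library they ran, high to low, IGFBP4, IGFBP6, IRS1, IGFBP2, IGF2R, IGFBP5, INSR and IGF1R, and with no second scrambled library their neighbours cannot be ranked beyond error. Over the siRNA libraries IGFBP6 averaged 143 ± 45.1 TPM and IRS1 135 ± 2.89 TPM (SD, n = 2 each), which overlap, as does IGF2R at 107 ± 39.2 TPM. INSR averaged 18.0 ± 4.34 TPM and IGFBP5 11.3 ± 3.67 TPM (SD, n = 2 each). IGFBP5 stood above INSR in the scrambled library and below it in each siRNA library.

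Read as a group, 2 of the 8 measured members, IGFBP2 and IGFBP5, were at least 2-fold lower with siRNA1, where 6.00% of the 14429 genes tested were. None was at least 2-fold higher, against 5.27% of all genes. With siRNA2, 1 member, IGFBP5, was at least 2-fold lower, where 13.2% of all genes were, and 1, IGF2R, was at least 2-fold higher, where 6.88% were. The median log2 fold of the 8 was -0.29 with siRNA1 and -0.16 with siRNA2, against 0.03 and -0.24 over all genes. With the GC trend removed the medians of the 8 turned direction, to 0.13 and 0.12, against 0.00 and -0.01 over all genes with a GC value, and with siRNA1 only IGFBP5 stayed at least 2-fold lower, where 2.37% of genes were. Both comparisons share the scrambled library. Between siRNA2 and siRNA1 as deposited, 0 of 8 members differed by 2-fold. Of all genes, 12.8% lay below siRNA1 by 2-fold or more with siRNA2, and 5.99% lay above it by as much. Median-of-ratios rescaling put IGFBP2 and IGF2R more than 2-fold apart between the siRNAs, so the count of 0 depends on the scaling. Their rescaled log2 folds with siRNA1 and siRNA2 were -1.32 and -0.10 for IGFBP2 and 0.34 and 1.38 for IGF2R. After adjustment over all genes limma called 0 of the 8 members and 0 of the 14429 genes (0%) at 0.05. Without adjustment 1 member and 428 genes lay under 0.05.

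**Figure D3:**
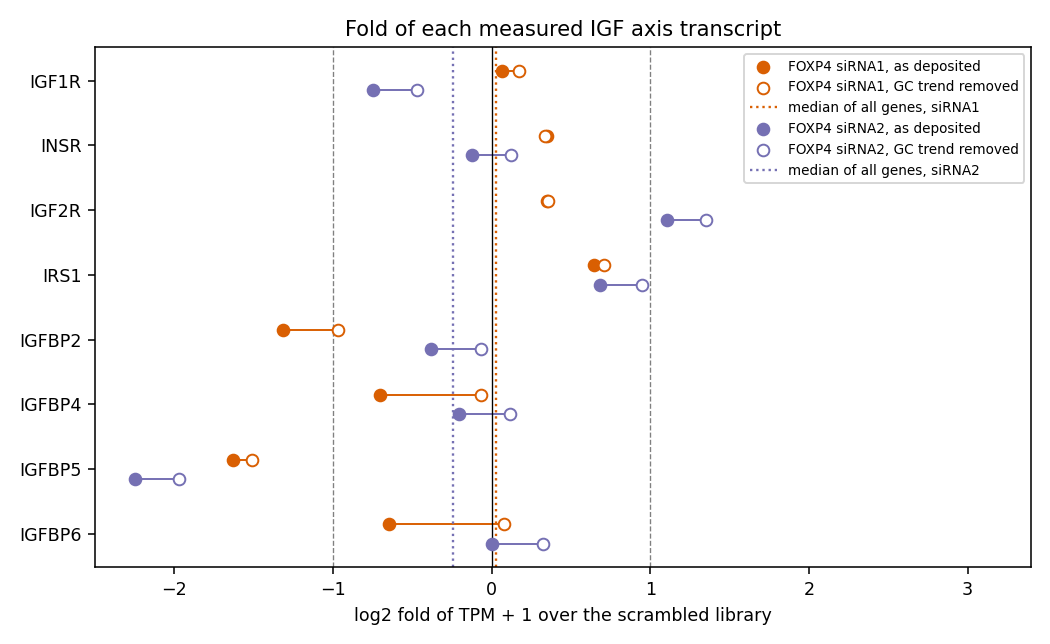
Log2 fold of TPM + 1 over the scrambled library for the 8 measured members, with filled points as deposited, open points after removal of the GC trend, dotted lines at the median of all genes and dashed lines at 2-fold. IGFBP5 lies left of the 2-fold line with each siRNA in both settings, and the siRNA1 points of IGFBP4 and IGFBP6 move to near 0 when the GC trend is removed.

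**Figure D4:**
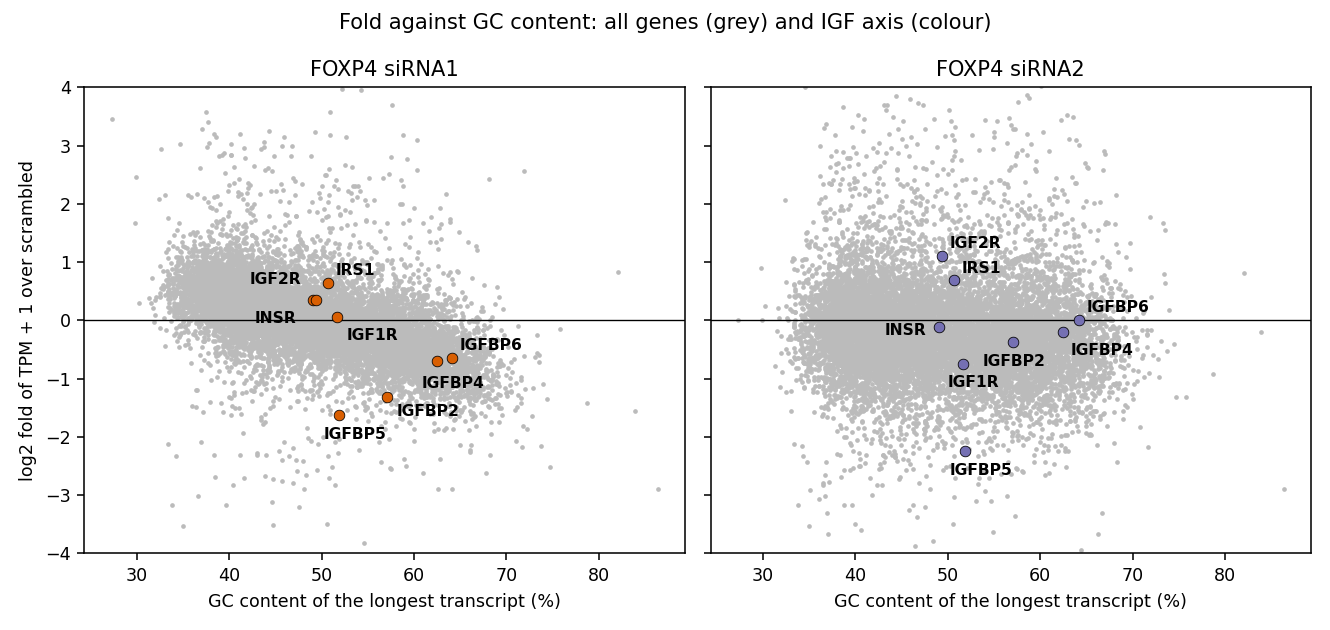
Log2 fold over the scrambled library against GC content for 12302 genes (grey) and the measured IGF axis members (colour); 8 genes with siRNA1 and 25 with siRNA2 lie beyond the axis limit of 4. The grey cloud slopes down with siRNA1, where the GC-rich IGFBP4 and IGFBP6 sit within it and IGFBP5 sits in its lower part.

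By likeness of the pair of log2 folds among 9122 other genes averaging at least 10 TPM, the genes nearest to IGFBP5 were MCM5, FZD2 and GATA5. MCM5, a subunit of the replicative helicase, measured 20.3 TPM with siRNA1 and 14.1 TPM with siRNA2, against 62.5 TPM with the scrambled siRNA, at a distance of 0.18 on the log2 scale from IGFBP5. FZD2, a Wnt receptor, lay at a distance of 0.31 and the transcription factor GATA5 at 0.34. With the GC trend removed, MCM5 stayed more than 2-fold below the control with siRNA1, at -1.23, while FZD2 and GATA5 did not, at -0.86 and -0.93. The likeness rests on 2 folds that share a control.

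Other genes of the pathway were read from 7 lists of 82 genes, of which 58 passed the filter on low values. The lists were chosen with earlier results of these data known, so the shares below describe them and test nothing. With siRNA1, 5 of the 58 (8.62%) exceeded the control by 2-fold or more and 0 lay that far under it, beside the 5.27% and 6.00% of all genes given above. With siRNA2, 11 (18.97%) exceeded it by 2-fold or more and 4 (6.90%) lay that far under it, beside 6.88% and 13.2%. Once the GC trend was taken out, the siRNA1 counts became 2 higher (3.45%), FOXO3 and TXNIP, and 1 lower, CITED2, beside 3.65% and 2.37% of genes with a GC value. The siRNA2 counts became 12 higher (20.7%) and 2 lower (3.45%), beside 8.89% and 7.01%. The 11 and the 12 higher genes both include IGFBP1 and STC2, which passed the filter on low values only through their siRNA2 values. Limma called 0 of the 58. Without adjustment 3 of the 58 lay under 0.05 in limma (TXNIP, FOXO3 and PIK3CB), beside 428 of all 14429 genes.

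The ligands IGF1 and IGF2 were listed at or near 0, which, as for IRS2, need not mean an absent transcript. The insulin gene INS had no row under that symbol, so it was not measured. IGF1 was listed at 0 in every library, and IGF2 at 0 with siRNA1, 0.0309 TPM with siRNA2 and 0.152 TPM with the scrambled siRNA. Several GENCODE 29 gene records share the symbol IGF2, so no reads were estimated for it. H19, the non-coding neighbour of IGF2 in an imprinted domain, was by contrast abundant, at 2714 and 3245 TPM with siRNA1 and siRNA2 against 3387 TPM in the scrambled library, and its log2 folds of -0.32 and -0.06 became 0.37 and 0.26 with the GC trend removed. IGFBP7, a relative that binds IGFs weakly, did not exceed 0.112 TPM. Of the IGF2BP proteins, which bind IGF2 mRNA among others, IGF2BP2 measured 73.6 and 109 TPM against 82.9 TPM, and IGF2BP3 19.1 and 13.8 TPM against 18.4 TPM.

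Proteases that can cleave IGFBPs and their inhibitors had 3 of 9 listed genes past the filter. ADAM9, a membrane metalloproteinase, measured 419 TPM with siRNA1 and 428 TPM with siRNA2, against 284 TPM with the scrambled siRNA. ADAM9 transcripts are 39.4% GC, and its siRNA1 log2 fold was 0.56 as deposited and 0.13 with the GC trend removed. CTSD, the lysosomal protease cathepsin D, measured 175 and 246 TPM against 285 TPM. At 64.0% GC, CTSD had log2 folds of -0.70 and -0.21, which became 0.02 and 0.11 with the GC trend removed. STC2, an inhibitor of PAPPA, measured 1.18 and 2.68 TPM against 0.728 TPM. PAPPA itself did not exceed 0.0379 TPM in any library.

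Of 8 receptor relatives and adaptors past the filter, 1 was at least 2-fold higher with siRNA1 and 1 with siRNA2. Of 8 feedback inhibitors, 0 were with siRNA1 and 3 with siRNA2. The shares of all genes were 5.27% and 6.88%. Named here are the 2 highest and 2 lowest of each list by mean fold. GAB1, a docking protein for several receptor kinases, measured 22.8 TPM with siRNA1 and 20.7 TPM with siRNA2, against 9.13 TPM in the scrambled library, log2 folds of 1.23 and 1.10. GAB1 is 38.4% GC, and its siRNA1 fold was 0.76, inside 2-fold, once the GC trend was taken out. SOS2, a RAS exchange factor, measured 55.8 and 62.3 TPM against 34.7 TPM, and its siRNA1 fold of 0.67 became 0.27 with the GC trend removed, whereas GRB2, the adaptor that brings it to receptors, was near level at 70.2 and 71.6 TPM against 68.2 TPM. CRKL, a further adaptor, was above the control with siRNA1 and below it with siRNA2, at 140 and 57.9 TPM against 115 TPM. CBL, a ubiquitin ligase of receptor kinases, measured 41.3 TPM with siRNA1 and 69.0 TPM with siRNA2, against 21.4 TPM with the scrambled siRNA. NEDD4, a ligase that can mark IGF1R through the adaptor GRB10, was high with siRNA2 alone, at 14.1 and 63.4 TPM against 17.0 TPM. SOCS2 measured 26.5 and 55.0 TPM against 48.8 TPM, and GRB14, an inhibitor of the insulin receptor kinase, 14.3 and 9.19 TPM against 15.5 TPM.

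In the PI3-kinase relay, 24 of 27 genes passed the filter, with median log2 folds of 0.11 with siRNA1 and 0.02 with siRNA2. The catalytic subunit PIK3CB stood above the control with each siRNA, at 90.2 and 162 TPM against 40.5 TPM, log2 folds of 1.13 and 1.98. PIK3CA, the other broadly expressed catalytic subunit, measured 28.2 and 19.01 TPM against 11.9 TPM. These transcripts are poor in GC, at 39.4% and 34.8%, and taking out the GC trend left siRNA1 folds of 0.70 and 0.63. The regulatory subunit PIK3R3 measured 2.19 and 0.320 TPM against 3.21 TPM, and the S6 kinase gene RPS6KB2 14.4 and 9.71 TPM against 22.3 TPM. With the GC trend removed the siRNA2 fold of RPS6KB2 was -0.82, inside 2-fold.

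The FOXO list, of transcription factors restrained by AKT and some of their targets, had 11 of 14 genes past the filter and medians of 0.18 with siRNA1 and 0.15 with siRNA2. FOXO3 measured 100 TPM with siRNA1 and 124 TPM with siRNA2, against 45.9 TPM with the scrambled siRNA. TXNIP, which binds thioredoxin and limits glucose uptake, had the widest gap of the 58 by mean fold, at 1832 TPM with siRNA1 and 2397 TPM with siRNA2, against 307 TPM. Its mean log2 fold was 2.77 ± 0.27 (SD, n = 2). TXNIP did not pass limma over 14429 genes (adjusted p = 0.9999), but with genes under a mean of 10 TPM left out it passed (limma adjusted p = 0.00843). In the other alternative settings its limma adjusted p lay between 0.0788 and 0.9999. SESN1 measured 27.6 and 9.27 TPM against 27.1 TPM, and FOXO6 3.20 and 3.24 TPM against 6.73 TPM. FOXO6 is 70.6% GC, and its siRNA1 log2 fold of -0.88 turned to 0.24 with the GC trend removed, while its siRNA2 fold of -0.87 became -0.50.

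**Figure D5:**
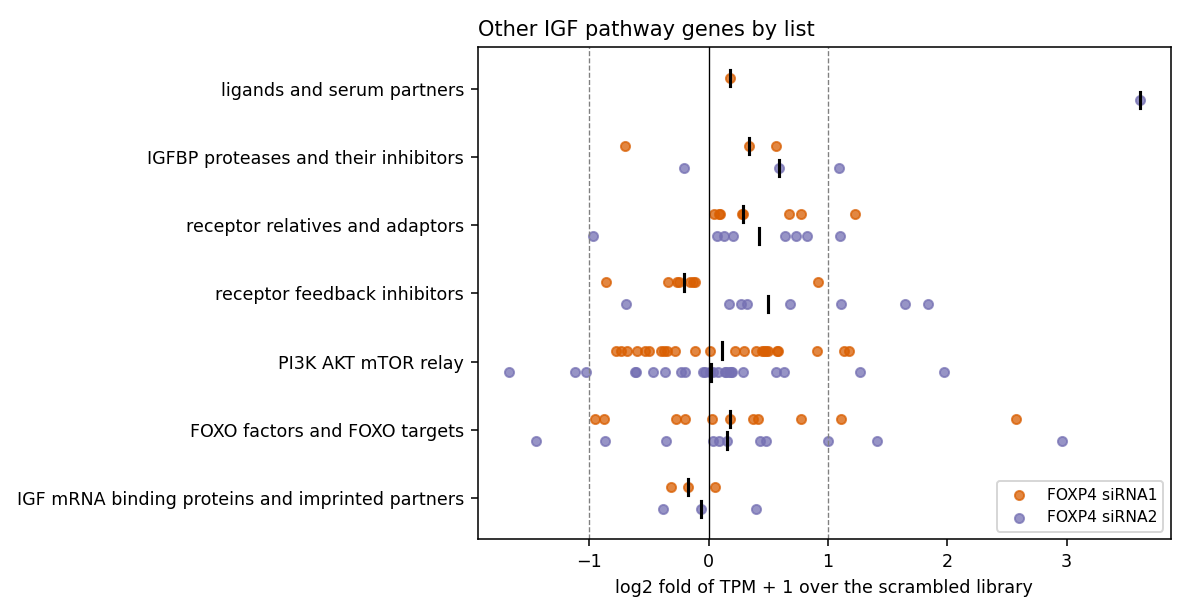
Log2 fold of TPM + 1 over the scrambled library for the 58 pathway genes past the filter, by list, with 1 point per gene and siRNA, black ticks at list medians and dashed lines at 2-fold. TXNIP is the rightmost point of the FOXO list with each siRNA, and IGFBP1 is the only measured gene of the ligand list.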

How the data were processed

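The authors deposited 1 table of TPM values, 1 column for each library, with genes named by symbol; the genome build was GRCh38, per the submitters' processing notes. The tool behind the TPM values and its annotation are not given in the sources used here. Because TPM forces libraries to a common total (998717 with siRNA1, 998406 with siRNA2, 998273 with the scrambled siRNA), a gain in abundant transcripts lowers all others. Values were compared as log2(TPM + 1), which understates folds of low genes. The 14429 genes averaging at least 1 TPM entered limma 3.58.1 (R 4.3.3) with an intensity trend and Benjamini-Hochberg adjustment at 0.05, 2 FOXP4 siRNA libraries against 1 scrambled library. That leaves 1 residual degree of freedom, and the lone scrambled library is assumed to vary like the others.

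Depth came from TPM times GENCODE 29 exon length: with values under 2 TPM and at most 10 reads, 93.4%, 93.6% and 93.4% lay within 0.1 of a whole read with siRNA1, siRNA2 and the scrambled siRNA. Estimated reads are approximate and cover counting error only. The GC trend was a lowess curve (fraction 0.3, statsmodels 0.14.6) of each fold on the GC content of the longest transcript, fitted without mitochondrially encoded genes on those averaging at least 10 TPM; 85.3% of genes tested had a value. The code was tested on simulated data.

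The members and lists were chosen with earlier results of these data known. Named were all members, FOXP4, the ligands, IGFBP1 and IGFBP7, the 2 highest and 2 lowest genes of each list by mean fold, and the 3 genes nearest to the member with the widest mean fold. Alternatives were pseudocounts of 0.1 and 5, a filter at 10 TPM or none, median-of-ratios scaling, leaving out mitochondrially encoded genes, removing the GC trend and leaving out either siRNA library.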

Additional observations from a re-analysis of the deposited data

How the results depend on the processing

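With a mean of at least 10 TPM required, limma called 93 of 9129 genes in place of 0 of 14429. Without mitochondrially encoded genes it called 11 of 14593. None was a member in any setting, and the filter at 10 TPM left 7 members, without IGF1R. With so small a share of genes called, the lack of a member among them says little about the members. The cause of the differing counts was not tested. With the GC trend removed, 1 member in place of 2 was at least 2-fold from the control with siRNA1, and the mean log2 fold was 0.0224 in place of -0.45 for IGFBP4 and 0.20 in place of -0.32 for IGFBP6. The other 53 values of single members in settings that keep all libraries had the sign of the main value. Leaving out a library turned IGF1R to 0.06 without siRNA2, INSR to -0.12 without siRNA1 and IGFBP6 to 0.00 without siRNA1. In alternatives chosen after seeing the data, removing the GC trend turned the median of the measured members to 0.13 with siRNA1 and 0.12 with siRNA2. Of the list genes, it left 2 above the control by 2-fold and 1 below it by as much with siRNA1, and 2 below it with siRNA2. IGFBP5 had a log2 fold of -2.25 without siRNA1 and -1.63 without siRNA2, values with no test. No paired analysis was possible because the labels give the groups no shared replicate numbers. With 1 scrambled library, an error in that library would enter every fold.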
